A study of Mus musculus and Meriones unguiculatus with 4 samples.

Results

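The genes described here are 38 genes of the actin and myosin cytoskeleton, taken from a fixed list of symbols: actins, the proteins that turn over, nucleate, branch, crosslink and anchor actin filaments, nonmuscle myosin II, and the small GTPases and kinases that control them. A gene was measured when its symbol, ignoring case, occurred once in the gerbil and once in the mouse table, which held for 33 of the 38. These 33 all passed the filter on low values and stood among 10162 genes compared in the whole series. Myh9, Myl12b, Pfn1 and Actr3 had no gerbil row under their symbol, and Tpm4 had no mouse row.

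RNA was sequenced from the enamel knot region of wild-type gerbil embryos (Meriones unguiculatus) at embryonic day 15 and of wild-type mouse embryos (Mus musculus) at embryonic day 13, with 2 libraries per species and 4 in all. The labelled cell type was epithelial cells, and the region had been cut from fixed frozen sections of mandibular tooth germs with a laser. The gerbil libraries are called E21 and E23 and the mouse libraries PEK and SEK after their columns; the labels do not explain these names, and E21 and E23 differ from the labelled embryonic day. How many animals made up a library was not given, so the spread between 2 libraries may be technical, or may hold a difference of stage or region. Species, embryonic day and table cannot be told apart in this design, since each species has its own day, table, unit and gene models.

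The enamel knot is a small cluster of epithelial cells in the bud and cap of a developing tooth that stops dividing and secretes growth factors to the cells around it. Actin filaments under the cell membrane and the nonmuscle myosin II that pulls on them give such epithelial cells their shape: small GTPases such as RhoA switch the system, the kinases ROCK1 and ROCK2 activate myosin through its regulatory light chain, and contraction at the cell apex bends an epithelial sheet. Many genes of this system share a promoter element, the CArG box, which binds serum response factor.

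A CArG box was looked for in the mouse promoters of the genes, because it is a known element of actin and myosin genes. RefSeq windows of build GRCm38.p6, from 250 bases before to 50 bases after an annotated start of a gene, were at hand for 33 of the 38 genes. Actb, Diaph1, Rac1, Rock1 and Tagln had none. The consensus of the box is the same on both strands, so that 1 search covers them. A match was in the windows of 3 of these 33 genes (9.09%), against 488 of 27025 genes in the whole table (1.81%). The 3 were Actg1, which encodes cytoplasmic gamma-actin, Myl9, a regulatory light chain of myosin, and Myl6, the essential light chain. Their windows are shown 5′ to 3′ on the strand of the gene, with the box in capitals.
Actg1, chr11:120348446-120348745, minus strand: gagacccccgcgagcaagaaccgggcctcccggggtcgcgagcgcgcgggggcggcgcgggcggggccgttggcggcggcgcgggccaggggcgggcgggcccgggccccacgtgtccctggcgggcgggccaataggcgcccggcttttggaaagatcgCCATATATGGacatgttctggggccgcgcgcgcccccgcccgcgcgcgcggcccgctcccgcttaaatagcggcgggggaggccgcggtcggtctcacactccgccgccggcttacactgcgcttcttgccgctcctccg
Myl9, chr2:156775214-156775513, plus strand: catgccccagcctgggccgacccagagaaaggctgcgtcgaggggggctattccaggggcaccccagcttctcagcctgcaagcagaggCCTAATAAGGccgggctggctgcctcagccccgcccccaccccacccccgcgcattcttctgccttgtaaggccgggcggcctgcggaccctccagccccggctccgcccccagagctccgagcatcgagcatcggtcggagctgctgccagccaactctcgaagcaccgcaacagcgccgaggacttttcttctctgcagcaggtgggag
Myl6, chr10:128492960-128493259, minus strand: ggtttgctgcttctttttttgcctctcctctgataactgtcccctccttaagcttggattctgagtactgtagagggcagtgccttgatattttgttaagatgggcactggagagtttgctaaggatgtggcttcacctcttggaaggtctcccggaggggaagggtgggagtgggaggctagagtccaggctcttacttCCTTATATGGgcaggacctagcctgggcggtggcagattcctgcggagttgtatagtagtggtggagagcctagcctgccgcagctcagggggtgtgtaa
The first base of the box lay at position -90 in Actg1, -161 in Myl9 and -50 in Myl6, counted from the annotated start that defines each window. Myl6 had 2 windows, and the window shown lay inside the gene, whose mouse row spans chr10:128490860-128493875 on the minus strand. A match is a description of these letters and not a bound site, and no gerbil promoter was examined. Of the 3, Actg1 was called higher in gerbil by the rule given next, while Myl9 and Myl6 were called in neither species.

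The gerbil values are TPM and the mouse values FPKM, which are both per transcript length. Each library was rescaled to 1000000 over the 13325 genes matched by symbol, and the rescaled value is called a level. Differences are gerbil minus mouse means of log2(level + 1), so that they understate the change of low genes. Without further correction they followed transcript length: centred on all genes, the 1017 shortest genes had a median of -1.80 and the 1016 longest a median of 1.43. This trend was therefore removed in each library, and the corrected difference is given with its standard error (SE) from 2 libraries per species. A gene was called higher in one species when the lower of its corrected levels there exceeded the higher of those in the other species by 2-fold or more. No test was run between tables that were normalized apart, and an exact two-sided permutation test of 2 against 2 libraries cannot give a p below 0.333.

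By this rule, 6 of the 33 genes were called higher in gerbil (18.2%), where 13.4% of all 10162 genes were. The 6 were Tagln, Msn, Actg1, Rhoa, Actr2 and Diaph1. One gene, Myl12a, was called higher in mouse (3.03%), where 14.7% of all genes were. The other 26 genes were called in neither species. The median corrected difference of the 33 was 0.48, beside -0.02 over all genes, with 21 genes above 0 and 12 below. Without the length correction the counts were 9 higher in gerbil, beside 18.4% of all genes, and 5 higher in mouse, beside 19.4%, and 5 genes were called the same way both times: Tagln, Msn, Actr2, Diaph1 and Myl12a.

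**Figure D1:**
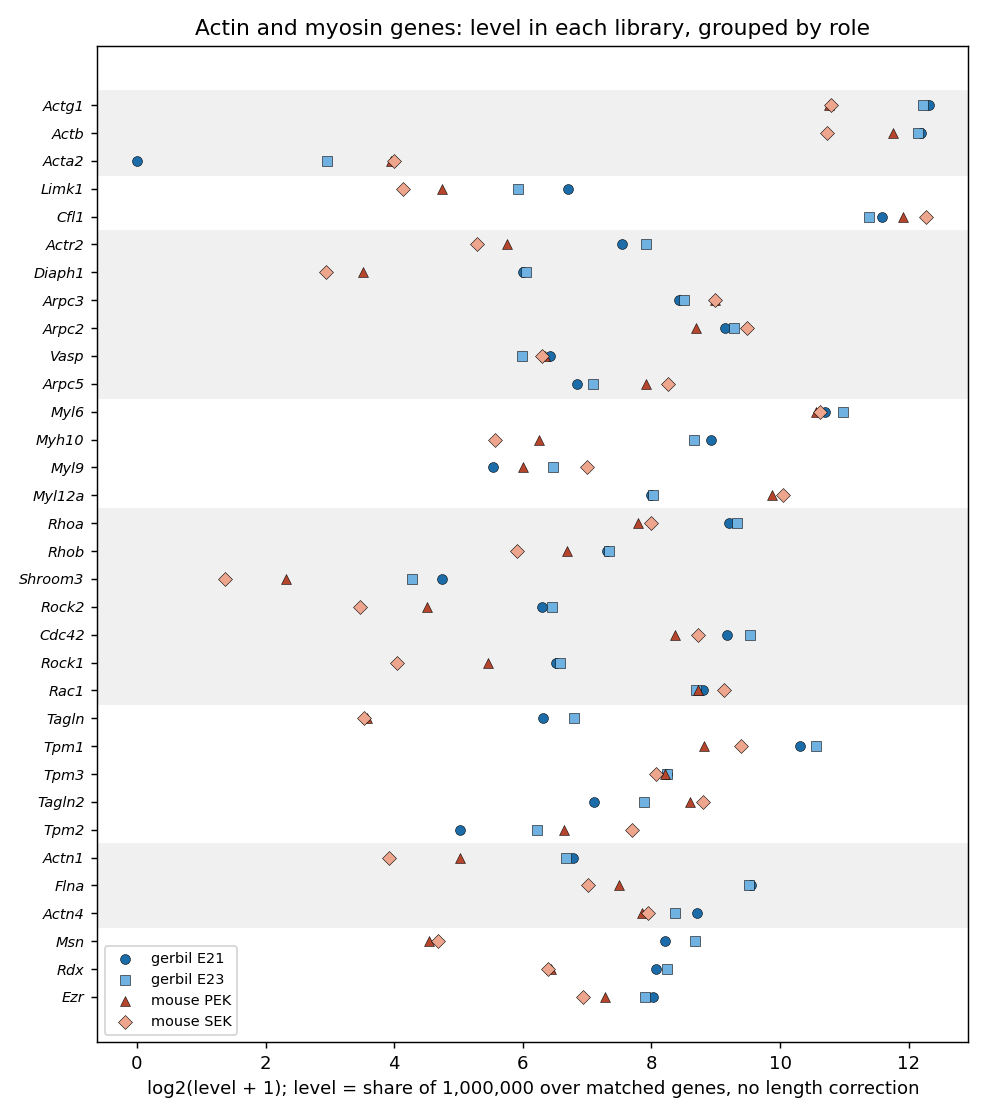
Level of each of the 33 measured genes in the gerbil libraries E21 and E23 (blue) and the mouse libraries PEK and SEK (red), as log2(level + 1) without length correction, with shaded bands grouping the genes by role. Msn and Tagln have both blue points far right of both red points, Myl12a has both red points to the right, and Acta2 is listed at 0 in E21.

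Together the 33 genes held 2.26% and 2.28% of the summed levels in gerbil E21 and E23, against 1.61% and 1.64% in mouse PEK and SEK. The 3 actin genes alone held 0.976% and 0.930% in the gerbil libraries, against 0.519% and 0.349% in the mouse libraries. These shares carry neither centring nor length correction, and on such levels the median difference of all genes was 0.62, higher in gerbil. They cannot tell fewer cells of a type from less RNA per cell, which holds for every level given here. The shares leave out Myh9, Myl12b, Pfn1, Actr3 and Tpm4, so they depend on which symbols could be matched. Pfn1 had levels of 3933 and 5877 in mouse PEK and SEK, against 943 and 815 in a gerbil row found by description. Gerbil rows so found for Actr3 summed to 251 and 267, against 124 and 133 in mouse. For Myl12b the gerbil row lay inside the mouse range, and Tpm4 had 995 and 1176 in gerbil alone.

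Among the actins, gamma-actin was higher in gerbil. Actg1 had levels of 5095 and 4770 in gerbil E21 and E23, against 1727 and 1777 in mouse PEK and SEK. The groups did not overlap and each pair lay close together, with a corrected difference of 1.76 ± 0.12 (log2, SE, n = 2 per species), a 3.38-fold excess in gerbil. Without length correction the difference was 0.86 and the call was lost.

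Beta-actin, the other cytoplasmic isoform, had levels of 4661 and 4524 in gerbil E21 and E23, against 3453 and 1697 in mouse PEK and SEK. The mouse libraries lay far apart, the corrected difference was 1.22 ± 0.62, and Actb was not called; without PEK it was called higher in gerbil, at 1.79. The mouse row of Actb spans chr5:142699786-142906754, a locus 56.9 times as long as the 3640 bp gene of the annotation, so that reads of neighbouring genes may be counted in it. Actb and Actg1 also encode nearly identical proteins, and the counting may have split their shared reads.

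Within a library, the ratio of Actg1 to Actb does not depend on how the tables were scaled to each other. It was 1.09 and 1.05 in gerbil E21 and E23, against 0.500 and 1.05 in mouse PEK and SEK. The gerbil libraries and SEK had about as much of one isoform as of the other, and PEK alone had less Actg1 than Actb. Both genes ranked above more than 99.3% of genes in each of the 4 libraries.

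Smooth muscle actin was scarce. Acta2 was listed at 0 in gerbil E21 and had a level of 6.80 in E23, against 14.4 and 15.0 in mouse PEK and SEK, and no fold is given for it. Leaving out E23, or the length correction, made it a call in favour of mouse. Its ratio to Actb was 0.0015 in E23, against 0.00418 and 0.00887 in PEK and SEK.

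Filament turnover is represented by cofilin, which severs filaments, and by LIM kinase 1, which inactivates cofilin by phosphorylation. Neither was called. Cfl1 was among the most abundant of the genes in both species, with levels of 3067 and 2683 in gerbil E21 and E23, against 3869 and 4915 in mouse PEK and SEK. The gerbil libraries lay below the mouse libraries, and the corrected difference was -0.82 ± 0.15. Limk1 had levels of 103 and 60.1 in the gerbil libraries, against 25.7 and 16.6 in the mouse libraries, without overlap, at 1.06 ± 0.36; it was called higher in gerbil without E23. Profilin 1, which delivers actin monomers to growing ends, had no gerbil row under the symbol Pfn1. A gerbil row described as profilin 1, looked up after its values could be seen, had levels of 943 and 815, against 3933 and 5877 in mouse, a mouse mean 5.58 times the gerbil mean on uncorrected levels.

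New filaments are started as branches by the Arp2/3 complex and as straight cables by formins. Actr2, which encodes the ARP2 subunit, was higher in gerbil, with levels of 186 and 241 in E21 and E23, against 53.2 and 38.1 in mouse PEK and SEK. Its corrected difference was 1.37 ± 0.21, and the call was lost when a trend with base composition was also removed (0.68). Diaph1, the formin activated by RhoA, had levels of 63.2 and 65.6 in the gerbil libraries, against 10.5 and 6.70 in the mouse libraries, without overlap. At 1.11 ± 0.05 its gap was close to the threshold: without E23 the call was lost at 1.02, as it was with base composition removed (1.02), a pseudocount of 0.1 (1.06) or a minimum mean level of 10 (1.00).

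The other Arp2/3 subunits were not called and did not all lie on one side. Arpc2, part of the core of the complex, had levels of 567 and 623 in gerbil E21 and E23, against 413 and 718 in mouse PEK and SEK. The gerbil libraries lay inside the mouse range on these levels. With the length correction both lay above it, at 0.60 ± 0.30. Arpc5 had 114 and 136 in the gerbil libraries, against 240 and 305 in the mouse libraries, at -0.81 ± 0.14 corrected. Arpc3, another subunit, shows how much the length correction weighs on a short gene. It had levels of 345 and 361 in gerbil, against 508 and 509 in mouse; the difference was 0.61 ± 0.17 with the correction and -1.16 without it, where it was called higher in mouse. Vasp, which elongates filaments, had 84.9 and 62.3 in gerbil, against 80.5 and 77.5 in mouse, with overlap. In the mouse libraries, Actr3, the ARP3 subunit, was 2.33 and 3.50 times as abundant as Actr2. The gerbil table had no row under Actr3, but 2 rows described as actin-related protein 3-like, looked up after their values could be seen. They summed to 251 and 267, against 124 and 133 for mouse Actr3, without centring or length correction.

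Myosin II is built from heavy chains, essential light chains and regulatory light chains, and 1 of its 4 measured genes was called. Myl12a, a regulatory light chain, was the only gene of the 33 called higher in mouse, with levels of 255 and 261 in gerbil E21 and E23, against 940 and 1057 in mouse PEK and SEK. Its corrected difference was -2.07 ± 0.06, a 4.20-fold excess in mouse. It was called higher in mouse under each of the 11 other ways of scaling, correcting, filtering and leaving out a library, with differences between -2.58 and -1.95. Only a required gap of 4-fold in place of 2-fold ended the call.

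Myl12a has a nearly identical neighbour, Myl12b, on mouse chromosome 17, and reads may be shared between them. In mouse the ratio of Myl12a to Myl12b was 3.02 in PEK and 1.81 in SEK. The gerbil table had no row under Myl12b, but a row described as myosin regulatory light chain 12B, looked up after its values could be seen, had levels of 332 and 369, against 311 and 584 for mouse Myl12b. Summed over both light chains the levels were 586 and 630 in gerbil E21 and E23, against 1251 and 1641 in mouse PEK and SEK. The mouse mean of the sum was 2.38 times the gerbil mean, without centring or length correction.

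Myh10, the heavy chain of nonmuscle myosin IIB, had levels of 487 and 403 in gerbil E21 and E23, against 75.1 and 46.4 in mouse PEK and SEK. The groups lay far apart on this scale, at 2.25 without length correction, where it was called higher in gerbil. Its transcript is the longest of the 33 at 8647 bp, and with the correction the difference was 0.78 ± 0.11 and the gene was not called. In mouse, Myh10 was 1.62 and 1.96 times as abundant as Myh9, the heavy chain of myosin IIA. Myl6 had levels of 1662 and 2029 in gerbil, against 1516 and 1580 in mouse, at 0.81 ± 0.19, and Myl9 had 45.7 and 87.4 in gerbil, against 63.4 and 126 in mouse, with overlap, at 0.63 ± 0.54. Without length correction the differences of Myl6 and Myl9 changed sign, to -0.39 and -1.13.

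RhoA, the GTPase that switches on ROCK and formins, was higher in gerbil. Rhoa had levels of 592 and 646 in E21 and E23, against 222 and 255 in mouse PEK and SEK. The groups did not overlap, and the corrected difference was 1.42 ± 0.10, a 2.67-fold excess in gerbil. Without length correction it was 0.74 and the call was lost.

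The other GTPases were not called. Rac1, which drives branched actin at the cell front, had levels of 443 and 412 in gerbil E21 and E23, against 423 and 560 in mouse PEK and SEK. Those groups overlapped, and the corrected difference was -1.31 ± 0.44; without PEK, or with base composition removed, it was called higher in mouse (-1.74 and -1.69). Cdc42, which sets polarity, had 579 and 742 in gerbil, against 330 and 424 in mouse, without overlap, at 0.33 ± 0.27. The ratio of Cdc42 to Rac1 was 1.31 and 1.80 in the gerbil libraries, against 0.781 and 0.757 in the mouse libraries, so that Cdc42 exceeded Rac1 in both gerbil libraries and in neither mouse library. On length-corrected levels it was 1.64 and 2.27 in gerbil, against 0.732 and 0.519 in mouse. Rhob had levels of 158 and 162 in gerbil, against 103 and 59.0 in mouse, at 1.05 ± 0.42, and was called higher in gerbil without PEK.

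Both ROCK kinases had higher uncorrected levels in gerbil and neither was called. Rock1 had 90.8 and 94.6 in gerbil E21 and E23, against 42.9 and 15.5 in mouse PEK and SEK, at -0.09 ± 0.38 corrected. Rock2 had 77.8 and 86.4 in gerbil, against 21.7 and 10.1 in mouse; it was at 0.48 ± 0.21 with the length correction and at 1.75 without it, where it was called higher in gerbil. The ratio of Rock2 to Rock1, which compares a pair of long transcripts, was 0.856 and 0.914 in the gerbil libraries, against 0.506 and 0.653 in the mouse libraries. Shroom3, which brings ROCK to the apical junctions for apical constriction, was the lowest of the genes in mouse, with 25.8 and 18.4 in gerbil, against 3.96 and 1.59 in mouse. Its difference was 0.82 ± 0.19 with the correction and 2.04, called, without it.

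**Figure D2:**
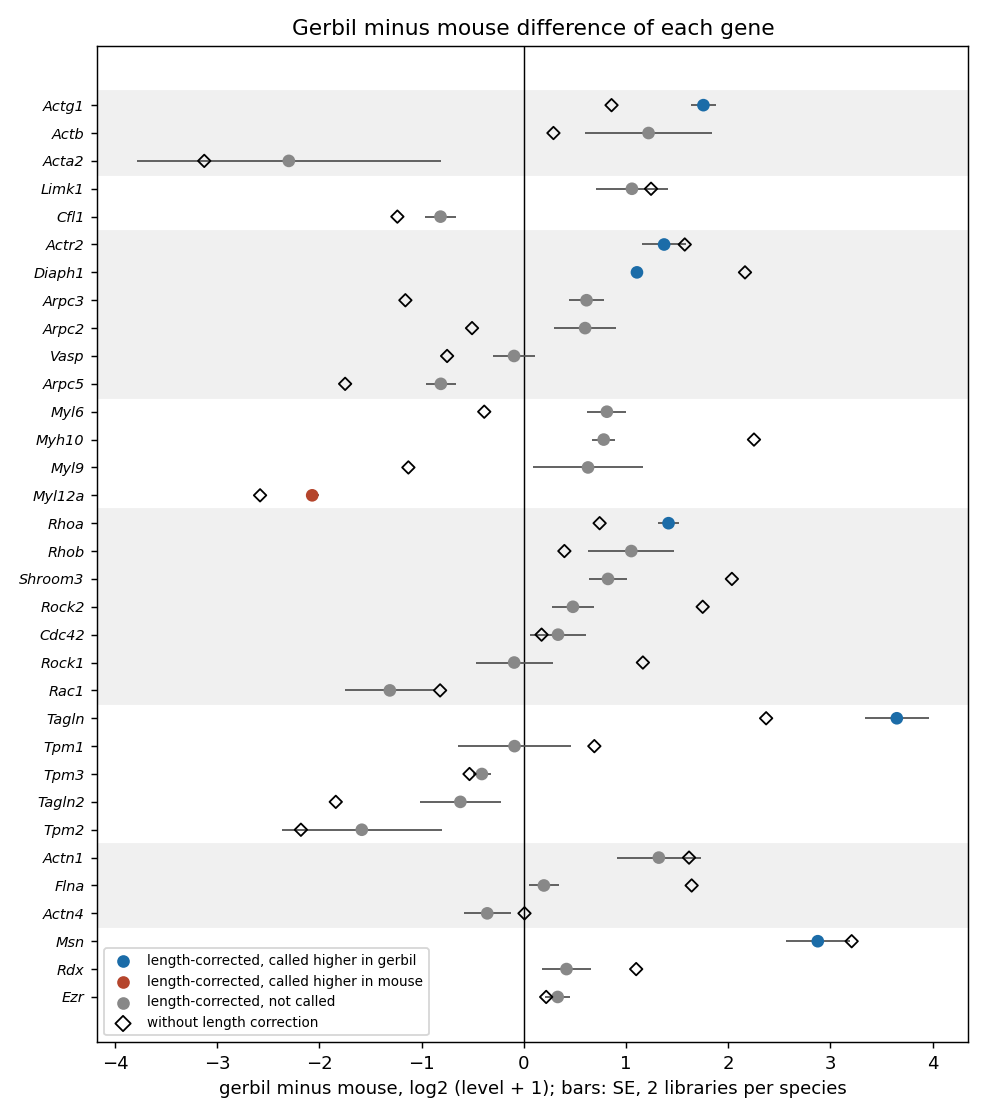
Gerbil minus mouse difference of log2(level + 1) for each gene, with filled points length-corrected (bars, SE from 2 libraries per species; blue, called higher in gerbil; red, called higher in mouse; grey, not called) and open diamonds without length correction. Tagln at 3.65 and Msn at 2.88 lie farthest right and Myl12a at -2.07 is the red point; filled point and diamond lie on opposite sides of 0 for Arpc3 at 0.61 and -1.16, and also for Arpc2, Myl6, Myl9, Rock1, Tpm1 and Actn4.

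Transgelin, an actin-binding protein of smooth muscle and other contractile cells, had the largest corrected difference of the 33. Tagln had levels of 78.8 and 111 in gerbil E21 and E23, against 11.0 and 10.5 in mouse PEK and SEK. The corrected difference was 3.65 ± 0.31, a 12.6-fold excess in gerbil, and 2.37 without length correction. It was called higher in gerbil under all 11 other settings, with differences from 2.37 to 3.92, and also with a required gap of 4-fold. Its paralogue Tagln2 had 136 and 236 in gerbil, against 386 and 447 in mouse, at -0.62 ± 0.39, and was called higher in mouse only without length correction, at -1.84. The ratio of Tagln to Tagln2 was 0.578 and 0.470 in the gerbil libraries, against 0.0285 and 0.0236 in the mouse libraries, with no overlap.

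Markers of smooth muscle and pericytes were set beside Tagln, since the dissected region may hold vessels. The 8 measured markers summed to 104 and 149 in gerbil E21 and E23, against 84.2 and 66.5 in mouse PEK and SEK, and none was called in either direction. Myh11, the smooth muscle heavy chain, was at 1.81 and 3.65 in gerbil, against 0.247 and 0.0769 in mouse. With the length correction its difference was -0.24 ± 0.45. The median corrected difference of the 8 markers was 0.03, and Rgs5 was listed at 0 in E21. Cspg4, Smtn and Pdgfrb, which are also expressed outside smooth muscle, held most of the sum in E21, at 37.5, 34.1 and 26.0. The part of smooth muscle in the Tagln result was not tested.

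Tropomyosins, which coat filaments and set which proteins may bind them, were called in neither species. Tpm1 had levels of 1269 and 1502 in gerbil E21 and E23, against 453 and 671 in mouse PEK and SEK. These groups did not overlap, but the corrected difference was -0.09 ± 0.55. Tpm3 had 303 and 301 in gerbil, against 295 and 269 in mouse, and its corrected difference was -0.41 ± 0.09; a mouse pseudogene row, Tpm3-rs7, held a further 74.4 and 60.5. Tpm4, measured in gerbil only, was at 995 and 1176, or 0.784 and 0.783 of Tpm1. Tpm2, a tropomyosin of muscle and fibroblasts, had 31.6 and 73.7 in gerbil, against 98.8 and 208 in mouse, at -1.59 ± 0.79; it was called higher in mouse without E23 or without PEK.

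Skeletal muscle markers were highest in the library in which Tpm2 was highest. The 8 measured markers summed to 32.8 and 62.5 in gerbil E21 and E23, against 147 and 762 in mouse PEK and SEK; 4 were called higher in mouse, none higher in gerbil, and Mylpf was listed at 0 in E21. SEK, with the highest sum, also had the highest Tpm2 and Myl9. Whether muscle fibres entered the dissected tissue was not tested.

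Crosslinkers bundle filaments or knit them into a mesh. Their 3 genes held 0.127% and 0.116% of the levels in gerbil, against 0.0441% and 0.0388% in mouse, but none was called after length correction. Flna, filamin A, had levels of 749 and 730 in gerbil E21 and E23, against 179 and 129 in mouse PEK and SEK, at 0.20 ± 0.15 with the correction and 1.64, called, without it. Actn1, an alpha-actinin, had 109 and 101 in gerbil, against 31.7 and 14.1 in mouse, without overlap, at 1.32 ± 0.41. It was called higher in gerbil in 6 of 11 other settings, which included leaving out E23 and leaving out PEK. Actn4, the other nonmuscle alpha-actinin, had 416 and 331 in gerbil, against 230 and 245 in mouse, at -0.36 ± 0.23.

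Ezrin, radixin and moesin tie the actin cortex to the cell membrane, and moesin alone of the 3 was called. Msn had levels of 297 and 410 in gerbil E21 and E23, against 22.3 and 24.5 in mouse PEK and SEK. The corrected difference was 2.88 ± 0.31, a 7.35-fold excess in gerbil; it was called under all 11 other settings, between 2.52 and 3.84, and with a required gap of 4-fold. In mouse, Msn was the least abundant of the 3, below Rdx at 85.9 and 83.3 and Ezr at 154 and 122. In gerbil it was the most abundant, above Rdx at 267 and 301 and Ezr at 259 and 238. Corrected differences of Rdx and Ezr were 0.42 ± 0.24 and 0.33 ± 0.13.

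Moesin is abundant in endothelial, blood and mesenchymal cells, so their markers were set beside it. The 4 measured endothelial markers summed to 1.13 and 103 in gerbil E21 and E23, against 5.31 and 13.2 in mouse PEK and SEK, with Emcn listed at 0 in E21 and none called. Of 7 listed blood and immune markers only 2 were measured. They summed to 3.24 and 16.8 in gerbil, against 8.24 and 22.98 in mouse, with C1qa called higher in gerbil. The haemoglobin genes Hba-a1 and Hbb-bt had no gerbil row under their symbol and are not in these sums. In mouse PEK and SEK, Hba-a1 had levels of 807 and 3922, and Hbb-bt 94.1 and 205. The 10 mesenchyme markers summed to 1945 and 3886 in gerbil, against 696 and 757 in mouse, with a median difference of 1.34 and none called. The part of endothelial, blood and mesenchymal RNA in the Msn and Tagln results was not tested.

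Epithelial and enamel knot markers bear on the label of the samples. The 8 epithelial markers summed to 8951 and 7643 in gerbil E21 and E23, against 5711 and 7558 in mouse PEK and SEK, with 3 called higher in gerbil and 2 higher in mouse. The 7 enamel knot markers were detected in every library and summed to 1632 and 1608 in gerbil, against 4459 and 2593 in mouse, with 3 called higher in mouse and none higher in gerbil. How far the share of knot cells enters the differences of the actin genes was not tested.

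Before the correction, the sign of the differences went with transcript length. The 17 shorter genes, of 1128 to 2966 bp, had a median uncorrected difference of -0.75 with 6 above 0, whereas the 16 longer ones, of 3164 to 8647 bp, had a median of 1.41 with 14 above 0. After the correction the medians were 0.60 and 0.45. Of the 9 genes called only without the correction, the 5 called higher in gerbil were Myh10, Rock2, Actn1, Flna and Shroom3, and the 4 called higher in mouse were Acta2, Tagln2, Arpc3 and Arpc5. Actg1 and Rhoa were called only with it.

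**Figure D3:**
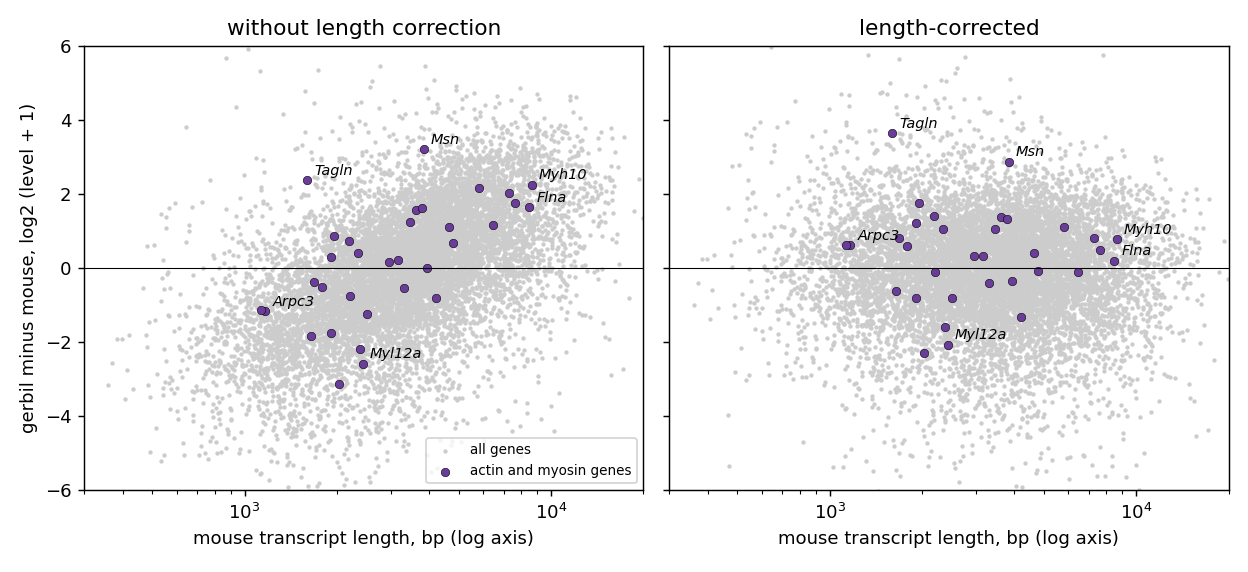
Gerbil minus mouse difference of log2(level + 1) against mouse transcript length (log axis) for all 10162 genes (grey) and the 33 actin and myosin genes (purple), without length correction on the left and with it on the right. On the left the cloud slopes up and Myh10 and Flna stand with other long genes; on the right Tagln, Msn and Myl12a stay at the edges of the cloud.

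Between the 2 libraries of a species, few of the genes differed by 2-fold on the corrected scale, and with 1 library each these values have no replicate check. In gerbil, Acta2 and Tpm2 were more than 2-fold higher in E23 than in E21, where 6.03% of all genes were, and none was 2-fold lower, where 3.68% were. In mouse, Tpm1 was more than 2-fold higher in SEK than in PEK, beside 7.44% of all genes, and Actb more than 2-fold lower, beside 8.44%. The median size of the difference over the 33 genes was 0.21 in gerbil and 0.29 in mouse, beside 0.28 and 0.44 over all genes. Tpm2 and Myl9 were higher in E23 than E21 and in SEK than PEK, by 1.22 and 0.86 in gerbil and by 1.00, just short of 2-fold, and 0.65 in mouse.

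**Figure D4:**
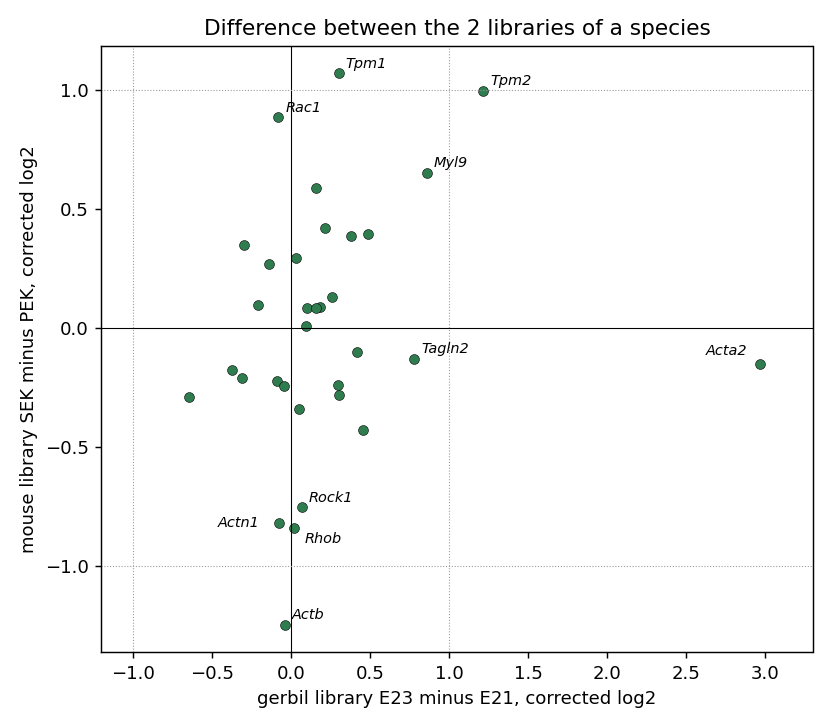
Corrected log2 difference of each gene between gerbil E23 and E21 (x axis) and between mouse SEK and PEK (y axis), with dotted lines at 2-fold. Most genes lie within 2-fold on both axes; Acta2 and Tpm2 lie past it to the right, Tpm1 above and Actb at -1.25 below.

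Of 104 other gene symbols of the actin pathway, listed by function, 76 were measured and kept. By the same rule 12 were called higher in gerbil (15.8%) and 9 higher in mouse (11.8%), close to the background of 13.4% and 14.7%, and their median difference was 0.23. Without length correction the counts were 24 and 9, beside 18.4% and 19.4% of all genes. Vcl, vinculin, which links actin to adhesions, had the largest difference, with levels of 267 and 302 in gerbil E21 and E23, against 9.56 and 4.08 in mouse PEK and SEK, at 3.72 ± 0.24. Anln, anillin, which scaffolds actin and myosin in the cleavage furrow, had 125 and 102 in gerbil, against 8.61 and 7.69 in mouse, at 2.37 ± 0.20. Capza1, a capping protein subunit, was at 293 and 315 in gerbil, against 53.1 and 39.8 in mouse, at 2.18 ± 0.18.

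Regulators of myosin and of small GTPases were called in both directions. Ppp1r12a, the myosin phosphatase subunit that binds myosin, had levels of 139 and 168 in gerbil E21 and E23, against 36.01 and 15.84 in mouse PEK and SEK, at 1.79 ± 0.41. Dapk3, a kinase that phosphorylates the regulatory light chain, had 47.6 and 41.6 in gerbil, against 161 and 174 in mouse, at -1.47 ± 0.10. Arhgap35, which turns RhoA off, and Ect2, which turns it on in dividing cells, were higher in gerbil by 1.68 ± 0.18 and 1.42 ± 0.04. Arhgef2, another activator of RhoA, and Cit, citron kinase, were lower in gerbil at -2.08 ± 0.30 and -1.76 ± 0.55, and both calls were lost without length correction.

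Genes of filament turnover, nucleation and crosslinking were likewise split. Ssh3, of the slingshot family of cofilin phosphatases, was higher in gerbil at 2.28 ± 0.34, and Limk2, which inactivates cofilin, was lower at -1.89 ± 0.29. Nckap1, of the WAVE complex that activates Arp2/3 below Rac1, was higher in gerbil at 1.31 ± 0.22, and Wasl, which activates Arp2/3 below Cdc42, was lower at -2.45 ± 0.07. Pdlim7, a PDZ and LIM protein of actin filaments, and Cald1, caldesmon, which binds actin and tropomyosin, were lower at -2.86 ± 0.03 and -2.53 ± 0.15. Within the crosslinking and attachment list 2 of 19 genes were called higher in gerbil and 4 higher in mouse, within the nucleation list 1 of 13 in each direction, within the turnover list 3 of 15 and 1 of 15, within the small GTPase list 2 of 14 in each direction, and within the myosin list 4 of 13 and 1 of 13. In the list on serum response factor, its cofactors and targets, neither of the 2 measured genes was called. The other symbols of that list lacked a row in the gerbil table, the mouse table or both, and were not compared.

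**Figure D5:**
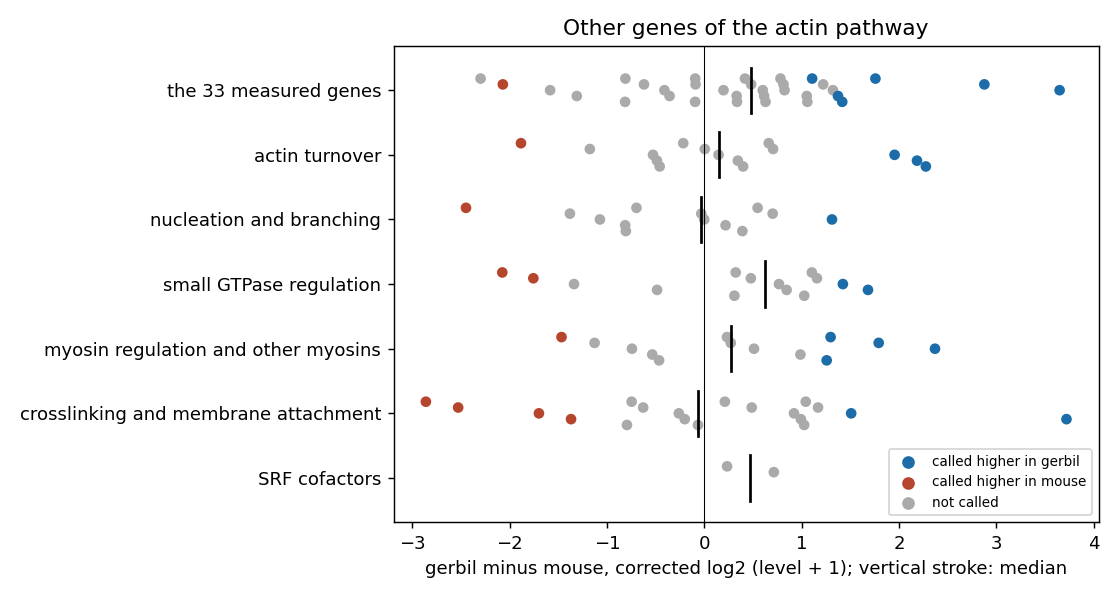
Corrected gerbil minus mouse difference of log2(level + 1) for the 33 actin and myosin genes (top row) and for 76 other genes of the pathway in 6 lists, with blue points called higher in gerbil, red points called higher in mouse, grey points not called and a vertical stroke at each median. The median is 0.48 for the 33 genes and between -0.07 and 0.62 for the lists, and Vcl at 3.72 is the point farthest right.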

How the data were processed

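RNA levels of 33 actin and myosin genes were compared between 2 gerbil and 2 mouse libraries of the enamel knot region. Per the labels' protocols, tissue was fixed, frozen-sectioned and laser-microdissected, RNA was extracted with TRIzol, and SMARTer mRNA-Seq libraries were made. Among tools, RSEM 1.3.1, STAR 2.7.1a and cutadapt 2.8 appear in the submitters' processing notes, with the mouse builds GRCm38 and mm10; no gerbil build is given in the sources used here. The gerbil table deposited by the authors holds TPM per gene and the mouse table deposited by the authors holds FPKM per locus. A further 4 per-sample gerbil columns were not used. Depth is unknown for mouse and was not analysed here for gerbil, so no counting interval is given.

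Levels were log2-transformed with a pseudocount of 1. Kept were genes that had a transcript length (exon union, GENCODE M21 basic, GRCm38) and whose levels averaged 1 or more across all 4 libraries. Each library was centred on the median of these genes, and its running median along length in 40 bins was subtracted. Columns show the species but no sample number, so each was used as an unnumbered sample. The genes, pathway lists, marker lists and tests were chosen with earlier results of these data known. The text names each listed gene and, from each pathway list, up to 2 called genes per direction with the largest gap between the nearest libraries; gerbil rows found by description and the other markers named lie outside this rule and were chosen after their values were seen. A gene that this rule names is not reported here. The procedure was tested on simulated data. Python 3.11.15, pandas 2.3.3, numpy 2.4.6 and matplotlib 3.10.9 were used.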

Additional observations from a re-analysis of the deposited data

How the results depend on the processing

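No paired analysis was possible because the columns carry no replicate number. Of the genes called higher in gerbil (6), the count was 14 with neither centring nor length correction, where 29.7% of all genes were called so, 10 with a 1.5-fold gap, 2 with a 4-fold gap and 6 to 9 with 1 library left out. Without centring, the median of all genes shifted by 0.62. Of those called higher in mouse (1), it was 5 without length correction, 3 with a GC trend also removed, 5 with a 1.5-fold gap, 0 with a 4-fold gap, and 1 to 3 with 1 library left out (3 without E23 and 3 without PEK). For the other pathway genes, 12 were called higher in gerbil. This became 32 with neither centring nor length correction, beside 29.7% of all genes. Without length correction it was 24, and with a GC trend also removed 8. It was 19 with a 1.5-fold gap, 2 with a 4-fold gap and 11 to 16 with 1 library left out. Their 9 calls higher in mouse became 3, 9, 7, 15, 3 and 9 to 12 under the same settings, in that order. No share of all genes is given for the 1.5-fold and 4-fold gaps, the GC trend or a library left out. The counts of calls under those settings therefore have no background beside them. The median difference of the 33 genes (0.48) was 0.92 with neither correction, 0.29 without length correction and 0.29 to 0.59 with 1 library left out, lowest without PEK (0.29) and E23 (0.34). Rock1 turned from -0.09 to 1.80 with neither correction, and Arpc3 from 0.61 to -1.16 without length correction; the cause was not tested. The numbers of bins (20), the pseudocount (0.1) and the filters moved no count of calls by more than 1.5 times. Having 2 libraries per species limits every value, and the depth behind them is unknown.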
